A study of Mus musculus with 6 samples.

Results

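The genes of DNA replication and S phase were followed in cytotoxic T cells with and without a mutant of the histone deacetylase HDAC7. The set holds 48 listed genes, chosen by name for their part in copying the genome, and 47 of them had at least 1 probe set assigned to that gene alone, among 18193 genes so represented on the array. Chaf1a was not analysed here. Each gene was represented by its brightest probe set over the 6 arrays. All 47 lay above the filter on dim genes in both groups, and 13194 genes were tested in all.

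The cells came from spleens of C57Bl/6 mice that carry the P14 T cell receptor, which recognises the viral peptide gp33. After 24 h with that peptide, cultures were infected with a retrovirus for a fusion of GFP to a form of HDAC7 that cannot be phosphorylated. Cells with GFP (the mutant, n = 3) were then sorted from cells without it (labelled control, n = 3), so the control cells also passed through the infected cultures. Total RNA of each sample was hybridised to 1 Affymetrix Mouse Genome 430 2.0 array. The labels call the samples biological replicas but do not say whether these were separate mice or separate cultures. The p-values therefore measure only the spread between these samples. No empty vector or wild-type HDAC7 group is among the samples.

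Replication is prepared in G1, when the origin recognition complex, Cdc6 and Cdt1 load the ring of Mcm2 to Mcm7 onto DNA. In S phase Cdc45 and the GINS complex join that ring to form the active helicase, and polymerases alpha, delta and epsilon copy the opened strands with the sliding clamp Pcna and its loader. Many of these genes are classic targets of the E2F transcription factors, whereas many genes of G2 and mitosis are controlled through a promoter element called the CHR, often beside NF-Y boxes. T cells that have met antigen divide quickly and express both groups.

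The promoters of 8 genes are shown because they carry these elements or belong to the genes that moved most. The sequences are RefSeq windows of mouse build GRCm38.p6, printed 5′ to 3′ on the strand of the gene, from 250 bases before to 50 bases after the annotated start. In the first 6, capitals mark an E2F motif, searched on both strands as TTTCCCGC, TTTCGCGC, TTTGGCGC or TTTGCCGC. Brca1 (chr11:101551906-101552205, minus strand) has no capitals, since none of these letters stands in its window. In the last 2, which belong to mitotic genes, capitals mark the CHR, searched as TTTGAA on both strands. The other windows are Lig1 (chr7:13278576-13278875, plus strand, the middle of 3 windows listed for this gene), Gins3 (chr8:95633309-95633608, plus), Pole2 (chr12:69228141-69228440, minus), Mcm5 (chr8:75109259-75109558, plus), Mcm6 (chr1:128359656-128359955, minus), Cenpf (chr1:189688037-189688336, minus) and Ttk (chr9:83834439-83834738, plus).
Brca1: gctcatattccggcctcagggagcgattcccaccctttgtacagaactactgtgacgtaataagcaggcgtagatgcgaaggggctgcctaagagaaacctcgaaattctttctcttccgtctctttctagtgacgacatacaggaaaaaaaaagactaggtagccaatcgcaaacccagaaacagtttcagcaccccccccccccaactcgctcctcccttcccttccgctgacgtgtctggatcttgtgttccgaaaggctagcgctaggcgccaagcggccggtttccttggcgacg
Lig1: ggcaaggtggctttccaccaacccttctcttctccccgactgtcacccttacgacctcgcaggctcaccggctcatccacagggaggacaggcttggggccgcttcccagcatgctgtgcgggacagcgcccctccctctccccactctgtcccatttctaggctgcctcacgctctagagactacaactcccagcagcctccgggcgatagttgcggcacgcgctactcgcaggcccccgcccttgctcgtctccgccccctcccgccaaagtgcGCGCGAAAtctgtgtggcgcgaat
Gins3: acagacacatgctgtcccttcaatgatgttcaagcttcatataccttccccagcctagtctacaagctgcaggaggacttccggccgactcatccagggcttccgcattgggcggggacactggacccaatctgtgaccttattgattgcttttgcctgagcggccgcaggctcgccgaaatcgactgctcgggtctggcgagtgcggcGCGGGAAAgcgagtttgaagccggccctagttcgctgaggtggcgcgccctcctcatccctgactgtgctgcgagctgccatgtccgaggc
Pole2: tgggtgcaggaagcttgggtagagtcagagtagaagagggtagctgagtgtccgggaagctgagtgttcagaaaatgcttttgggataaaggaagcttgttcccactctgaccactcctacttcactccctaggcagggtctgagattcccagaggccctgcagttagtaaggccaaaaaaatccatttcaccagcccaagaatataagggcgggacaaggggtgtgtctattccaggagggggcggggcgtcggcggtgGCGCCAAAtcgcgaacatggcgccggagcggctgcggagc
Mcm5: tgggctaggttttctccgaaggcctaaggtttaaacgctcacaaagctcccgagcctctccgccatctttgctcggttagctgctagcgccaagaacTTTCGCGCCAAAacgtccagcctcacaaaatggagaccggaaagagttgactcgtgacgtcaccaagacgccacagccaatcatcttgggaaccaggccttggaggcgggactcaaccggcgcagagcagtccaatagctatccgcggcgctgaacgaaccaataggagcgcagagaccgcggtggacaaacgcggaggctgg
Mcm6: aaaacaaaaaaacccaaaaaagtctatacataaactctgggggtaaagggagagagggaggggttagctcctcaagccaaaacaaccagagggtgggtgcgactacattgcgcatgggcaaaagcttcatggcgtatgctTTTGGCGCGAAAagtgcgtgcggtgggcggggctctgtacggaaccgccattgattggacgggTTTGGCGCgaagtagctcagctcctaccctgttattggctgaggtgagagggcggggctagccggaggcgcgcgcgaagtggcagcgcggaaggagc
Cenpf: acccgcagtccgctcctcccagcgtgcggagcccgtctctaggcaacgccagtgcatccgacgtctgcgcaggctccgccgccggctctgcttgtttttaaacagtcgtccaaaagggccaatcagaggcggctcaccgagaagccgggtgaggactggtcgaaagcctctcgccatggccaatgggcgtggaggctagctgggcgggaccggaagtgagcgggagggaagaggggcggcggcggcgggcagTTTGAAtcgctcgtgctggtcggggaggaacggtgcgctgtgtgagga
Ttk: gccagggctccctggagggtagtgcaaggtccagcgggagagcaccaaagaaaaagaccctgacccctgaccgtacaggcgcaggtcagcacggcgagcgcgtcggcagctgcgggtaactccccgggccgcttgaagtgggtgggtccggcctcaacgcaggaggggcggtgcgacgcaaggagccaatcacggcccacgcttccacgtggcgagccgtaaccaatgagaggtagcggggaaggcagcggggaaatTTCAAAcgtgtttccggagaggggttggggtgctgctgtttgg

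The replication genes that passed the test moved by under 2-fold, in both directions. At an adjusted p under 0.05 (limma), 6 of the 47 rose and 3 fell in GFP positive cells, or 19.1% of them, where 42.1% of all tested genes passed (24.6% higher and 17.5% lower). This gap depended on the processing: with 32 added to the linear signal 36.2% of the members and 39.4% of all genes passed, and with limma's trended robust prior 34.0% and 43.5%. The genes that rose were Brca1, Lig1, Gins3, Uhrf1, Prim1 and Gins4, and those that fell were Orc2, Pold2 and Pole2. Changes ran from -0.60 for Orc2 to 0.63 for Brca1 on the log2 scale of the signal, and 0 members changed by 2-fold or more. The median change of the members was 0.04, against -0.02 over all tested genes. The median size of a change, whatever its sign, was 0.15 among the members and 0.25 over all tested genes. The members were also brighter, with a median log2 level of 7.67, against 4.67 over all tested genes. The part of brightness in these contrasts was not tested.

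**Figure D1:**
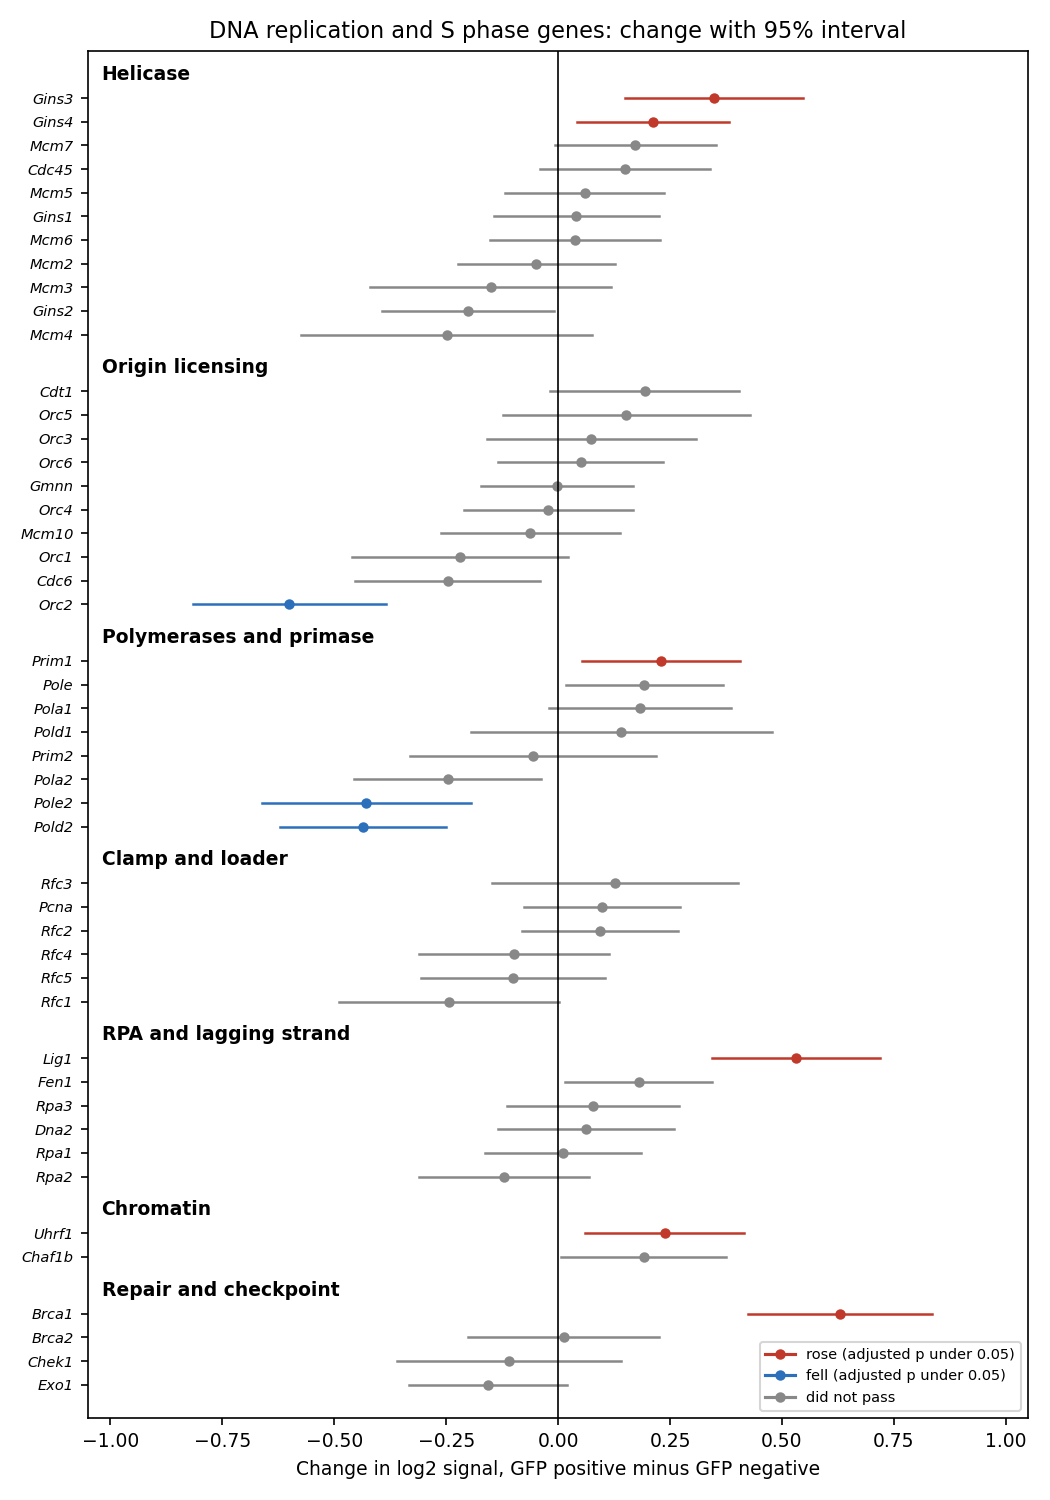
Change in log2 signal of each of the 47 members (points, GFP positive minus GFP negative, 3 samples a group) with its 95% interval from limma (bars), ordered by role. Red or blue points passed the adjusted threshold. Brca1 stands farthest to the right at 0.63 and Orc2 farthest to the left at -0.60, and most intervals cross 0.

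For most members the interval of the change lay near 0. The 95% interval of the change lay within 0.5 of 0 in 40 of the 47 members, or 85.1%, compared with 48.7% of all tested genes. This counts where an interval lies and not how wide it is. The exceptions were the called genes Brca1, Lig1, Gins3, Orc2, Pold2 and Pole2, and Mcm4, whose interval ran from -0.57 to 0.08. A change of 0.5 or more was measured for 3 members, Brca1, Lig1 and Orc2, and for 22.7% of all tested genes. In 21 members the 3 samples of one group all lay on one side of the other group, GFP positive above in 14 of them. That is 44.7% of the members, beside 53.8% of all tested genes without overlap and 29.7% with GFP positive above.

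The split between higher and lower calls moved with the scaling of the arrays. With quantile normalization the members had 5 higher and 9 lower calls, and with each array centred on its median 10 higher and 3 lower, against 6 and 3 on the deposited values. Over all tested genes, the calls were 49.0% higher with quantile normalization, 69.3% with centring and 58.4% on the deposited values. The array medians were 1.62 to 1.66 in GFP positive samples and 1.69 to 1.72 in GFP negative samples. With quantile normalization Gins3 (0.18, adjusted p = 0.145) and Gins4 (0.15, adjusted p = 0.131) lost their calls. The other 7 called members kept theirs under both scalings, in the same directions.

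The replicative helicase is the ring of Mcm2 to Mcm7 with Cdc45 and the 4 GINS subunits. Of these 11 genes, 2 rose, 0 fell and 9 did not pass, with a median change of 0.04. Gins3, a GINS subunit, read 5.10, 5.03 and 5.04 (log2 signal) in GFP positive samples 1 to 3, against 4.60, 4.83 and 4.69 in GFP negative samples 1 to 3. All GFP positive samples lay above all GFP negative ones, and the change was 0.35 ± 0.09 (SE, adjusted p = 0.0134). A dimmer Gins3 probe set differed by 0.16 in the same direction without passing. Gins4, another GINS subunit, read 7.33, 7.33 and 7.36 in GFP positive samples and 7.12, 7.18 and 7.08 in GFP negative samples. This change of 0.21 ± 0.07 (SE) stood at the edge of the threshold, at an adjusted p of 0.0495, and the call was lost whichever 1 of the 6 samples was left out. With the replicate number as a block its adjusted p was 0.064.

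None of the 6 subunits of the Mcm ring passed on the deposited values. Mcm2 read 9.03, 9.08 and 8.95 in GFP positive samples and 9.06, 9.06 and 9.09 in GFP negative samples. Its 95% interval, -0.22 to 0.13, was among the tighter ones, and the groups overlapped. Mcm3 read 9.69, 9.71 and 9.32 in GFP positive samples, beside 9.68, 9.78 and 9.71 in GFP negative samples. Its lowest value belonged to GFP positive sample 3, and the other 5 samples lay between 9.68 and 9.78. Mcm4 read 9.35, 9.13 and 8.85 in GFP positive cells and 9.39, 9.50 and 9.19 in GFP negative cells. Its representative probe set differed by -0.25 and its second one by 0.17, neither past the threshold, so the sign of any change in Mcm4 was not settled.

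Mcm5 read 10.11, 10.14 and 10.02 in GFP positive samples, against 10.04, 10.06 and 9.98 in GFP negative samples, a difference of 0.06. Mcm6 read 10.11, 10.21 and 10.07 in GFP positive samples, with 10.02, 10.16 and 10.10 in GFP negative samples, a difference of 0.04. Both are printed above for their E2F motifs, and in both the groups overlapped. A second Mcm6 probe set differed by -0.29 without overlap (adjusted p = 0.057 over probe sets). Mcm7 was the subunit nearest to a call: it read 10.78, 10.82 and 10.77 in GFP positive cells and 10.54, 10.69 and 10.62 in GFP negative cells. Its groups did not overlap, at a difference of 0.17 and an adjusted p of 0.109, and its 3 other probe sets differed by 0.03 to 0.13. It passed with median centring (adjusted p = 0.0497), with 32 added (0.0223) and with the trended robust prior (0.0161). Cdc45, which joins the ring at firing, differed by 0.15, Gins1 by 0.04 and Gins2 by -0.20, none past the threshold. The Gins2 groups did not overlap, and its second probe set differed by -0.14. Gins2 passed as lower with quantile normalization (adjusted p = 0.0326), with 32 added (0.0363) and with the trended robust prior (0.0468).

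**Figure D2:**
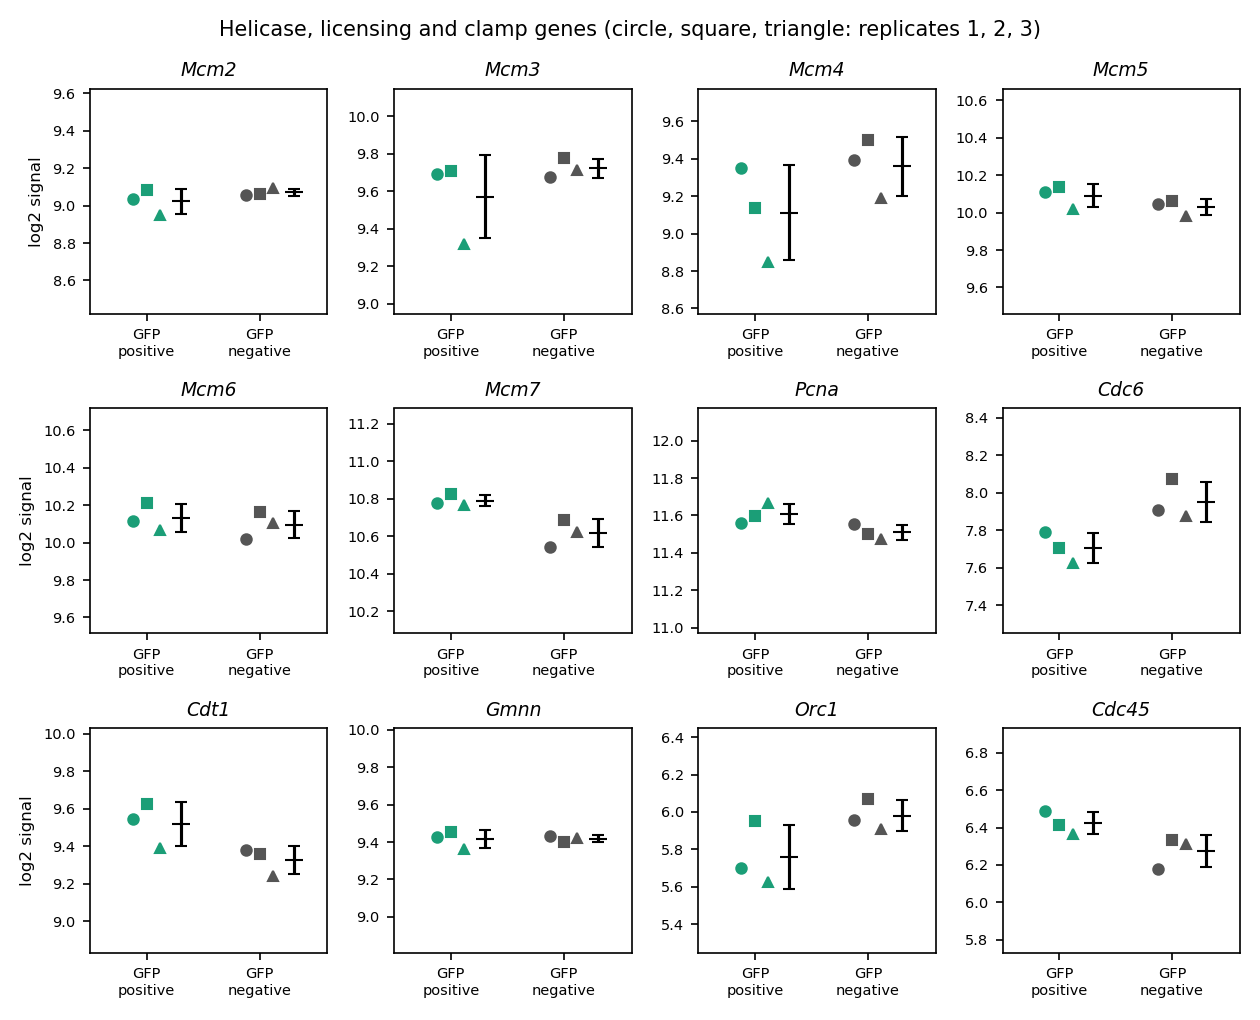
Log2 signal of the Mcm ring, Pcna, Cdc6, Cdt1, Gmnn, Orc1 and Cdc45 in each sample (points, 3 GFP positive left and 3 GFP negative right, shapes give the replicate number) with mean and SD (bars). All panels span the same range of log2 units, each around its own centre. Of the 12 genes shown, Mcm7, Pcna, Cdc6, Cdt1 and Cdc45 had groups that do not overlap.

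Origin licensing held the largest fall. Of 10 genes, the origin recognition subunits Orc1 to Orc6, Cdc6, Cdt1, Mcm10 and the licensing inhibitor Gmnn, 0 rose, 1 fell and 9 did not pass. Orc2 read 5.82, 6.07 and 6.04 in GFP positive samples, against 6.53, 6.56 and 6.65 in GFP negative samples. The groups were separated by more than their own ranges, and the change was -0.60 ± 0.09 (SE, adjusted p = 0.00156), or 1.52-fold less signal. Its other probe sets fell too, by 0.86 and by 0.76, at adjusted p of 0.00049 and 0.0355 over probe sets. Neither RefSeq window of Orc2 held an E2F motif.

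Cdc6, which loads the Mcm ring, read 7.79, 7.70 and 7.62 in GFP positive samples and 7.91, 8.08 and 7.87 in GFP negative samples. Every GFP positive value was lower, at a difference of -0.25 and an adjusted p of 0.0574, just short of the threshold. It passed under 5 of the alternatives, with quantile normalization at an adjusted p of 0.0275. Cdt1, its partner in loading, leaned the other way, with 9.54, 9.62 and 9.39 in GFP positive samples and 9.38, 9.36 and 9.24 in GFP negative samples. The lowest GFP positive value of Cdt1 lay 0.01 above the highest GFP negative one, and the difference of 0.19 did not pass (adjusted p = 0.124). It passed with the trended robust prior (adjusted p = 0.0425). A second Cdt1 probe set differed by 0.25 without overlap (adjusted p = 0.082 over probe sets). Gmnn, the protein that blocks Cdt1, read 9.43, 9.45 and 9.36 in GFP positive cells and 9.43, 9.40 and 9.42 in GFP negative cells. Its 95% interval was -0.17 to 0.17. Orc1 read 5.70, 5.95 and 5.63 in GFP positive cells, against 5.96, 6.07 and 5.91 in GFP negative cells. The groups overlapped, at a difference of -0.22 (adjusted p = 0.128). Orc1 passed as lower with quantile normalization (adjusted p = 0.0298) and without GFP positive sample 2 (0.0402).

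Orc4 gave a different answer on different probe sets. Its brightest one read 6.03, 6.13 and 5.97 in GFP positive samples and 6.09, 6.00 and 6.11 in GFP negative samples, a difference of -0.02. A dimmer one read 4.43, 4.34 and 4.33 in GFP positive samples and 4.09, 4.15 and 3.94 in GFP negative samples, without overlap. That second difference, 0.31, had an adjusted p of 0.0351 over probe sets, while the remaining Orc4 probe sets differed by -0.03 and -0.14. Orc3, Orc5 and Orc6 differed by 0.07, 0.15 and 0.05, and Mcm10, which helps the helicase fire, by -0.06. A Mcm10 probe set close to the filter level fell by 0.36 (adjusted p = 0.0309 over probe sets).

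Of the 8 polymerase and primase genes, 1 rose, 2 fell and 5 did not pass. Pold2, the regulatory subunit of polymerase delta, read 7.81, 7.90 and 7.77 in GFP positive samples, against 8.19, 8.33 and 8.26 in GFP negative samples. It fell by 0.44 ± 0.08 on the log2 scale (SE, adjusted p = 0.00343), with a gap of 0.30 between the groups. Pole2, the second subunit of polymerase epsilon, read 7.46, 7.56 and 7.28 in GFP positive samples, with 7.78, 7.99 and 7.82 in GFP negative samples. This change was -0.43 ± 0.10 (SE, adjusted p = 0.0108), and its promoter, shown above, holds an E2F motif 11 bases after the start. The catalytic subunits differed by 0.14 for Pold1 and 0.19 for Pole, neither past the threshold. Without GFP positive sample 1 the Pold1 change was 0.31 (adjusted p = 0.0360). Pole passed with median centring (0.0367), with 32 added (0.0127) and with the trended robust prior (0.0497).

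Prim1, the catalytic primase subunit, read 8.63, 8.62 and 8.69 in GFP positive samples and 8.38, 8.49 and 8.39 in GFP negative samples. The change of 0.23 ± 0.08 (SE) had an adjusted p of 0.0423, was lost whichever 1 of the 6 samples was left out, and had an adjusted p of 0.0566 with the replicate block. A second Prim1 probe set differed by 0.23 as well (adjusted p = 0.068 over probe sets). Prim2, the large primase subunit, was split between probe sets. The brighter read 7.39, 7.22 and 6.95 in GFP positive samples and 7.22, 7.32 and 7.19 in GFP negative samples, with overlap and a difference of -0.06. The other read 7.12, 7.20 and 7.17 in GFP positive samples, against 6.83, 6.94 and 6.82 in GFP negative samples, without overlap and with a difference of 0.30 (adjusted p = 0.0274 over probe sets). Pola1 differed by 0.18 and Pola2 by -0.25, and Pola2 reached an adjusted p of 0.0424 with the replicate block and passed under 5 other alternatives.

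No gene of the clamp and its loader passed, 0 of 6 for Pcna and Rfc1 to Rfc5. Pcna, the sliding clamp, read 11.56, 11.60 and 11.67 in GFP positive cells and 11.55, 11.50 and 11.48 in GFP negative cells. The samples of the groups did not overlap, yet the difference was 0.10, with a 95% interval from -0.08 to 0.27. The loader genes differed by -0.24 for Rfc1, 0.09 for Rfc2, 0.13 for Rfc3, and -0.10 for both Rfc4 and Rfc5. Rfc1 passed with the replicate block, at an adjusted p of 0.0389.

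Among the genes of single-stranded DNA and lagging strand processing, 1 of 6 rose and 5 did not pass. Lig1, the ligase that joins Okazaki fragments, read 9.33, 9.31 and 9.32 in GFP positive samples, against 8.74, 8.90 and 8.73 in GFP negative samples. The GFP positive samples lay within 0.02 of each other and the gap between groups was 0.41. It rose by 0.53 ± 0.08 on the log2 scale (SE, adjusted p = 0.00141), or 1.45-fold, and its window shown above holds an E2F motif 27 bases after the start. Fen1, the flap nuclease that works just before it, differed by 0.18 without overlap (adjusted p = 0.0755) and passed under 5 alternatives. The subunits of the single-strand binding protein RPA differed by 0.01 for Rpa1, -0.12 for Rpa2 and 0.08 for Rpa3.

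Dna2, a nuclease-helicase of the same step, differed by 0.06 on its brightest probe set, with 6.93, 7.08 and 6.95 in GFP positive samples and 6.85, 6.91 and 7.02 in GFP negative samples. A much dimmer Dna2 probe set read 2.87, 3.56 and 3.24 in GFP positive samples and 2.55, 2.59 and 2.79 in GFP negative samples. That one rose by 0.58 (adjusted p = 0.0345 over probe sets), while the remaining one differed by -0.15.

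Of the chromatin genes, Uhrf1, which guides maintenance of DNA methylation at the fork, rose. It read 9.91, 9.94 and 9.81 in GFP positive samples, against 9.63, 9.68 and 9.63 in GFP negative samples. Its change was 0.24 ± 0.08 (SE, adjusted p = 0.0381), its second probe set differed by 0.26, and leaving out a single sample ended the call in 5 of 6 cases. Chaf1b, a subunit of the histone chaperone CAF-1, differed by 0.19 without overlap (adjusted p = 0.0885). It passed with 32 added (adjusted p = 0.0274) and with median centring (0.0429), while a dim Chaf1b probe set differed by -0.09.

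Repair and checkpoint genes held the largest rise. Brca1, which acts in homologous recombination and at stalled forks, read 7.31, 7.44 and 7.28 in GFP positive samples, against 6.70, 6.82 and 6.62 in GFP negative samples. The groups were 0.46 apart at their nearest values, and the change was 0.63 ± 0.09 (SE, adjusted p = 0.000989), or 1.55-fold. Dimmer Brca1 probe sets gave 0.44, 0.30 and -0.31, none past the threshold, and the last of these read 1.29, 1.62 and 1.12 in GFP positive samples and 1.57, 1.88 and 1.51 in GFP negative samples, near the filter level. The mean of all Brca1 probe sets differed by 0.26 (adjusted p = 0.0993). Brca2 differed by 0.01, the checkpoint kinase gene Chek1 by -0.11 and the nuclease gene Exo1 by -0.16. A dimmer Chek1 probe set differed by -0.51 without overlap (adjusted p = 0.0532 over probe sets). Its remaining probe sets past the filter differed by -0.07 and -0.06. The Exo1 groups did not overlap, and Exo1 passed as lower with quantile normalization (adjusted p = 0.0265) and with 32 added (0.0286). It also passed with the mean of its probe sets (0.0295). A dimmer Exo1 probe set fell by 0.44 (adjusted p = 0.0355 over probe sets).

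**Figure D3:**
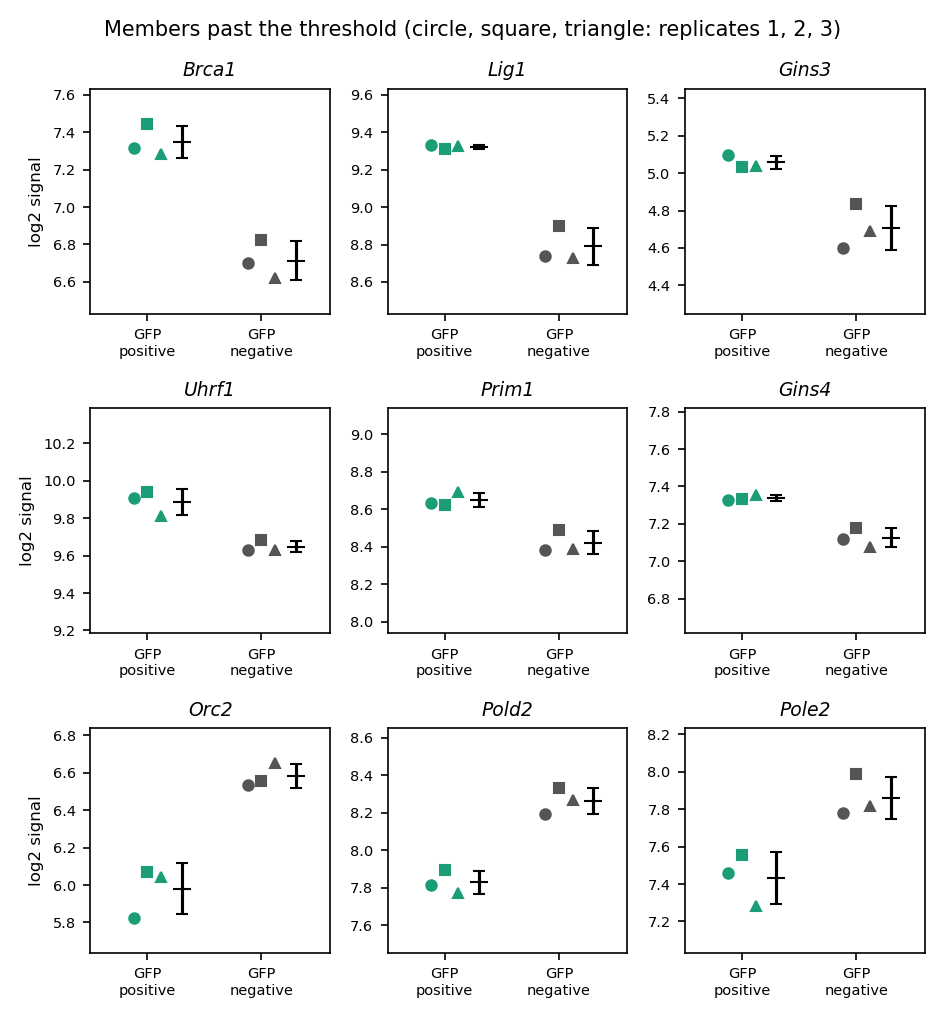
Log2 signal of the 9 members past the adjusted threshold in each sample (points, 3 GFP positive left and 3 GFP negative right, shapes give the replicate number) with mean and SD (bars). All panels span the same range of log2 units, and in none of the 9 do the groups overlap.

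Across all 106 member probe sets, 50 beside the representatives lay past the filter. Of these, 36 differed in the direction of the representative and 14 in the other. In 12 members a single probe set was all that was available, Pcna, Cdc6, Gmnn, Lig1, Gins4 and Pold2 among them.

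Samples within a group also differed from each other across the members. GFP positive sample 3 was the lowest of its group in 29 of 47 members and sample 2 the highest in 29. GFP negative sample 2 was the highest of its group in 36 and sample 1 the lowest in 26. Taken by replicate number, the members' median difference was 0.07 in pair 1, 0.03 in pair 2 and -0.01 in pair 3, with 30, 26 and 22 of 47 members higher in the GFP positive sample. Leaving out GFP positive sample 3 and GFP negative sample 1 together, a choice made after seeing the data, left 2 members higher and 2 lower, or 8.51%, where 25.2% of all tested genes passed.

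Among other genes of replication, higher calls outnumbered lower ones. Of 54 tested genes of replication outside the set, such as further helicases, firing factors and checkpoint clamps, 21 rose, 5 fell and 28 did not pass, with a median change of 0.15. That is 38.9% higher and 9.26% lower, beside 24.6% and 17.5% of all tested genes. The lower calls numbered 8 with quantile normalization, 9 with 32 added and 3 with median centring. They numbered 3 without GFP positive sample 1, GFP positive sample 3 or GFP negative sample 1, and 2 without GFP negative sample 2 or 3. Mcm9, a relative of the Mcm ring that acts in repair, read 3.94, 4.07 and 4.17 in GFP positive samples and 3.27, 3.40 and 3.31 in GFP negative samples, and rose by 0.74. On its second probe set it differed by -0.078. Cdc7, the kinase that triggers origin firing, read 7.07, 7.31 and 7.32 in GFP positive cells, against 6.65, 6.55 and 6.66 in GFP negative cells. It rose by 0.62, as did the firing factor gene Ticrr by 0.58 and Pold4, the smallest subunit of polymerase delta, by 0.61. The second probe sets of Cdc7 and Ticrr differed by 0.11 and 0.06, neither past the threshold.

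The subunits of the checkpoint clamp did not move together. Hus1, one of them, read 4.87, 5.11 and 4.93 in GFP positive samples, against 5.85, 5.81 and 5.83 in GFP negative samples, and fell by 0.86. Rad1, another subunit, fell by 0.36, a call lost without GFP positive sample 3, GFP negative sample 2 or GFP negative sample 3 (adjusted p of 0.0557, 0.0697 and 0.0569). Rad9a, also of this clamp and named after its values were seen, read 5.99, 6.13 and 6.31 in GFP positive samples, against 5.54, 5.78 and 5.79 in GFP negative samples, and rose by 0.44 (adjusted p = 0.0154). Cdca7, a chromatin remodelling cofactor, fell by 0.74. Pole4, a small subunit of polymerase epsilon, fell by 0.25. The Pole4 call was lost with median centring (-0.18, adjusted p = 0.131), without the filter on dim genes, with the mean of its probe sets or its second one, and when any 1 sample but GFP positive sample 3 was left out.

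Genes of nucleotide supply were called lower more often than tested genes as a whole. Of 17 tested genes, 4 rose, 9 fell and 4 did not pass, with a median change of -0.29. That is 23.5% higher and 52.9% lower, beside 24.6% and 17.5% of all tested genes, so the share of rises was near that of all genes. The genes that rose were both main ribonucleotide reductase subunits of deoxynucleotide synthesis, Rrm1 by 0.29 and Rrm2 by 0.28, thymidine kinase Tk1 by 0.28, and thymidylate synthase Tyms by 0.72 on a dim probe set of 2.65, 2.51 and 2.83 in GFP positive samples and 1.69, 2.15 and 2.00 in GFP negative samples. Without GFP negative sample 1 only Tyms of these 4 passed. Dut, the dUTPase of the same supply, named after its values were seen, fell by 0.29 (adjusted p = 0.0251). The 4 falls with the smallest p were Cad by 0.82, Umps by 0.67 and Ctps by 0.71, enzymes of pyrimidine synthesis, and the nucleotide pool cleaner Dctpp1 by 0.77. Cad read 6.87, 7.09 and 7.01 in GFP positive cells, against 7.67, 7.83 and 7.94 in GFP negative cells.

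Regulators of entry into S phase held larger changes than any member. Of 25 tested genes, 12 rose, 3 fell and 10 did not pass, with a median change of 0.05. That is 48% higher and 12% lower, beside 24.6% and 17.5% of all tested genes. Rises included 2 inhibitors of the cyclin-dependent kinases, Cdkn2c by 1.27 and Cdkn1b by 1.01, and the transcription factor genes E2f7, a repressor, by 1.15 and E2f2, an activator, by 0.68. On its second probe set Cdkn1b differed by 0.26 and did not pass (adjusted p = 0.423). Cdkn1a, another inhibitor gene named after its values were seen, differed by -0.58 and did not pass (adjusted p = 0.174). Cdkn2c read 8.19, 8.03 and 8.29 in GFP positive samples, against 6.81, 6.81 and 7.08 in GFP negative samples. The 3 falls were Cdk6, a G1 kinase, by 1.02, Ccne1, encoding cyclin E1, by 0.55, and the repressor gene E2f6 by 0.28. The E2f6 call was lost with median centring (-0.21, adjusted p = 0.0727), with the mean of its probe sets (-0.13, 0.176) and without GFP positive sample 2, GFP negative sample 2 or GFP negative sample 3 (0.0527, 0.0514 and 0.0750). Cdk6 read 8.08, 8.51 and 8.54 in GFP positive samples, against 9.37, 9.38 and 9.42 in GFP negative samples, without overlap.

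Genes of G2 and mitosis rose almost throughout. Of 36 tested, 35 rose, 0 fell and 1, the securin gene Pttg1 at -0.15, did not pass, with a median change of 0.67. The rises are 97.2% of the list, beside 24.6% of all tested genes. The spindle gene Nusap1 read 9.64, 9.54 and 9.62 in GFP positive samples, against 8.52, 8.55 and 8.67 in GFP negative samples, a rise of 1.02. The kinetochore gene Cenpf rose by 1.13, the cytokinesis motor gene Kif20a by 1.06 and the checkpoint kinase gene Ttk by 0.95. The 95% interval lay within 0.5 of 0 in 3 of these 36 genes, beside 40 of the 47 replication members. By replicate number, 35 of the 36 were higher in the GFP positive sample of each pair, with medians of 0.65, 0.68 and 0.71. Top2a and Ccna2 stand both in this list and in 1 of the lists above. In bulk RNA, fewer or more cells in a phase and less or more RNA per cell cannot be told apart.

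**Figure D4:**
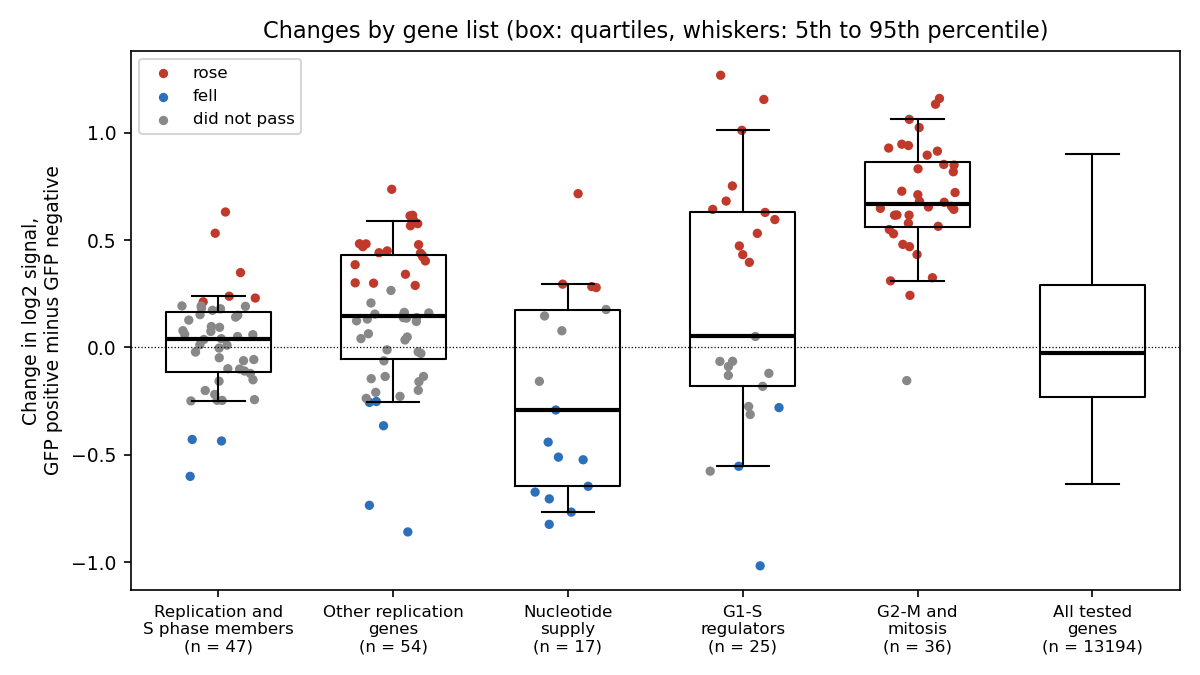
Changes in log2 signal (GFP positive minus GFP negative) of the 47 members, of 4 other gene lists and of all 13194 tested genes. Points are genes, boxes the quartiles and whiskers the 5th to 95th percentile. The members centre on 0.04 in a narrow box, and the G2-M and mitosis list on 0.67.

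The members and the mitotic genes also differed in the letters of their promoters. RefSeq windows were found for 38 of the 47 members, and an E2F motif stood in 16 of these genes, or 42.1%, compared with 2.60% of 27025 genes in the table. It stood in 1 of 29 matched G2-M and mitosis genes, or 3.45%. The CHR stood in 5 members, 13.2%, in 21 of the mitotic genes, 72.4%, and in 20.2% of all genes. NF-Y boxes (CCAAT, both strands) stood in 60.5% of the members, 75.9% of the mitotic genes and 41.1% of all genes. GC boxes (GGGCGG, both strands), which can overlap an E2F motif, stood in 68.4% of the members, 79.3% of the mitotic genes and 38.2% of all genes. All genes here are the 27025 of the RefSeq table and not only those tested on the array. They were not matched to the members in signal level or base content. A match is a run of letters and not a measured binding site.

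The E2F motif stood in members of each outcome. It was found in 3 of 5 matched members that rose, Lig1, Gins3 and Uhrf1, in 1 of 3 that fell, Pole2, and in 12 of 30 that did not pass. Called members had more windows per gene, 1.6 for those that rose and 1.67 for those that fell, against 1.13 for the uncalled. Per window the shares with the motif were 37.5%, 20.0% and 35.3%. Mcm6 holds 3 matches, at -110, -106 and -47 from the start, of which the first pair overlap, and Mcm5 holds an overlapping pair at -153 and -149. On their representative probe sets both genes differed by under 0.1 between the groups. The second Mcm6 probe set differed by -0.29 without overlap (adjusted p = 0.057 over probe sets).

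**Figure D5:**
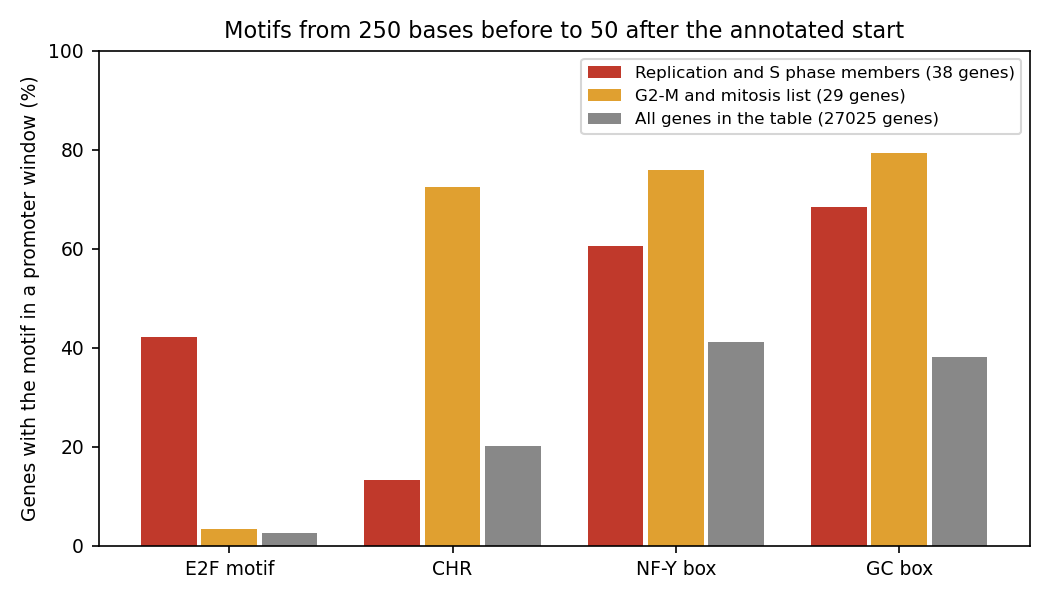
Share of genes (%) with each motif in at least 1 promoter window, for 38 matched members, 29 matched G2-M and mitosis genes and all 27025 genes of the RefSeq table. The E2F motif bar is highest for the members at 42.1%, and the CHR bar for the mitotic genes at 72.4%.

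The labels were checked on Hdac7 and on cell markers. The brightest Hdac7 probe set read 8.09, 8.18 and 8.17 in GFP positive samples, against 4.86, 4.83 and 4.81 in GFP negative samples, while a second one fell by 0.55. The T cell and cytotoxic genes Cd3d, Cd3e, Cd3g, Cd8a, Cd8b1, Cd2 and Gzmb were all bright, with a summed level of 13.09 to 13.21 (log2) in GFP positive samples and 13.33 to 13.39 in GFP negative samples, and 4 of the 7 rose and 2 fell. Dendritic cell markers summed to 3.90 to 4.13 in GFP positive samples and 4.31 to 4.32 in GFP negative samples, with 3 of 5 lower. Macrophage markers summed to 4.46 to 4.58 in GFP positive samples and 4.30 to 4.49 in GFP negative samples, with 1 of 6, Cd68, higher. Markers of CD4 T cells, B cells, NK cells, neutrophils and erythroid cells or platelets gave 0 calls. Their summed level was at most 5.41 in any sample. Under the filter, and so not tested, were 2 of 2 NK cell, 2 of 3 neutrophil and 3 of 4 erythroid or platelet markers. So were 1 of 5 B cell, 1 of 3 CD4 T cell, 1 of 5 dendritic cell and 3 of 6 macrophage markers. For NK cells no call was possible. The part of other cells in the results above was not tested. The 3′ probe set of actin was above its 5′ probe set by 0.48 to 0.53 in GFP positive samples and by 0.43 to 0.51 in GFP negative samples, a measure of RNA integrity.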

How the data were processed

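Total RNA of 6 sorted samples was measured on 1 Affymetrix Mouse Genome 430 2.0 array each. The deposited table holds log2 signal values, a unit read from their range, and Affymetrix Expression Console is named per the submitters' processing notes. The probe summary and array normalization are steps not given in the sources used here. Precision rests on 3 arrays a group. Groups and replicate numbers came from the labels.

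Values were used as deposited. Of 45101 probe sets, 34945 carry 1 gene symbol, and each gene was represented by its brightest one over the 6 arrays. Genes whose mean lay under the 40th percentile, a log2 level of 1.27, were left out. GFP positive and GFP negative samples were compared by a two-sided limma fit (version 3.58.1, R 4.3.3) with group alone as a term and moderated variances. Benjamini-Hochberg adjustment ran over 13194 genes, with a threshold of 0.05. Values marked as over probe sets were adjusted over all probe sets past the same filter. No list was tested as a set.

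The members and all gene lists were chosen with earlier results of these data known. Values per sample are given for called members, Mcm2 to Mcm7, Pcna, Cdc6, Cdt1, Gmnn, Orc1 and members whose probe sets disagree in sign with 1 past the threshold. From each other list, up to 4 genes by unadjusted p in each direction are named, and others from these lists were named after their values were seen. Hdac7 checks the construct.

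The labels number the samples 1 to 3 in both groups. Deviations from the group means correlated between same-numbered samples, across genes, at 0.47, 0.35 and 0.25, so the number was also fitted as a block. Alternatives were other scalings, filters, probe set choices, an added offset, limma's trended robust prior, the block and leaving out samples. On simulated data with 200 of 13194 genes changed, the fit recovered 46% of changes of 0.5 and 88% of changes of 1, and 2.90% of its calls were false. In the real data 42.1% of tested genes passed, a far larger share than was changed in the simulation. The adjusted threshold depends on that share, so these rates do not carry over to the results above. Promoter windows came from a RefSeq table, matched by symbol and scanned for exact letters on both strands. No protein sequences were used here.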

Additional observations from a re-analysis of the deposited data

How the results depend on the processing

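On the deposited values 6 members were higher and 3 lower, with a median change of 0.04. Lower calls numbered 9 with quantile normalization (5 higher). Higher calls numbered 10 with median centring, which also moved the median to 0.11, 3 without the filter on dim genes and 3 of 32 with the second brightest probe set. With genes under the 60th percentile left out there were 7 higher and 5 lower, with 32 added to the linear signal 10 and 7, and with limma's trended robust prior 10 and 6. The members' share of calls was 25.5%, 36.2% and 34.0% under these, beside 53.3%, 39.4% and 43.5% of all genes. With the replicate block there were 4 higher and 5 lower: Gins4 and Prim1 lost their calls and Pola2 and Rfc1 passed. Leaving out 1 sample at a time gave 3 to 4 higher and 3 to 5 lower, with 5 lower without GFP positive sample 2 and 3 higher without it or without any 1 GFP negative sample. Leaving out GFP positive sample 3 and GFP negative sample 1 together, chosen after seeing the data, gave 2 higher and 2 lower. Of the 38 uncalled members, 14 passed in the same direction under at least 1 alternative and 7 under 3 or more. Orc2 (-0.86 to -0.42), Pold2 (-0.48 to -0.37) and Lig1 (0.50 to 0.60) passed in every setting that gave them a value. Pole2 missed with the mean of all probe sets (-0.32, adjusted p = 0.0517) and without those 2 samples (-0.39, adjusted p = 0.0511), and Brca1 with that mean and with its second brightest probe set (0.44, adjusted p = 0.0834). With the second brightest probe set the sign was opposite in 8 of 32 members. These were Orc4 (0.31) and Prim2 (0.30), which then passed, and Mcm4, Mcm6, Pold1, Rfc2, Rpa1 and Chaf1b, which passed on neither probe set. It was also opposite for the called genes Mcm9 (-0.078), E2f6 (0.029) and Hdac7 (-0.55), and the cause was not tested. The G2-M list had 32 to 35 of 36 higher in the settings that kept 36 genes, and 18 of 23 with the second brightest probe set. Dim probe sets limit what can be said of second probe sets.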
